A study of Caenorhabditis elegans with 80 samples.

Results

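The sarcomere genes examined here are unc-54, myo-3, myo-1 and myo-2, which encode the heavy chains of muscle myosin, and unc-15, unc-22, unc-27, unc-89 and lev-11, which encode other proteins of the thick and thin filaments and the M-line. They were taken by name from the platform's probe annotation: 7 of the 9 genes have a probe of their name, 1 probe each, among 23232 probes and 16367 named genes. The genes unc-22 (twitchin) and lev-11 (tropomyosin) were not analysed here. Each array compared the RNA of 2 recombinant inbred strains, derived from a cross of the Bristol strain N2 and the Hawaiian strain CB4856, as whole worms at the L3 larval stage. There were 40 arrays with worms raised for 72 h at 16 °C and 40 with worms raised for 40 h at 24 °C, and 39 strain pairs had the same strains on the same dyes at both temperatures. Each strain is an inbred line with its own mixture of the parental genomes, and no genotypes were used here. WN80 and WN38 each stand on 2 arrays at each temperature and WN65 on 2 arrays at 24 °C, so 5 of the 39 pairs share a strain with another array. Nothing in the labels says that an array was repeated with a second RNA sample, so the spread between arrays holds strain differences and measurement error together.

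Muscle contracts when myosin heads on thick filaments pull on actin in thin filaments. In the nematode body wall the thick filament has MYO-3 in its centre and UNC-54 in its arms, around a core of paramyosin (UNC-15), and the giant protein UNC-89 holds thick filaments together at the M-line. The pharynx, the pumping organ of feeding, has muscle with its own pair of heavy chains, MYO-1 and MYO-2. UNC-27 is a troponin I of body wall muscle and makes thin filaments responsive to calcium. In the annotation of assembly WBcel235 unc-54, myo-1, unc-15 and unc-89 lie on chromosome I, myo-3 on V, and myo-2 and unc-27 on X.

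The values are log ratios of the 2 strains on an array, read as log2. The dye in the numerator is not stated, so a sign says only that 2 genes or 2 arrays lean the same or the opposite way. A ratio holds no expression level, and levels are therefore compared neither between genes nor between temperatures. The ratios come from whole worms, in which a smaller share of muscle in the worm and less RNA per muscle cell cannot be told apart. Arrays were scaled alike within a temperature (median absolute ratio 0.59 at 16 °C and 0.66 at 24 °C on every array), and single intensities were not used here, so how far a spot stood above its background is not known here. Precision rests on how many arrays there are.

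The ratios of most of the muscle genes spread little between arrays. For unc-54, the major heavy chain of body wall muscle, the 40 ratios at 16 °C ran from -0.73 through a median of 0.08 to 1.64, and those at 24 °C from -1.36 through -0.08 to 0.58. The highest value, in WN60/WN77, stood alone, since this was the only array at 16 °C with an unc-54 ratio beyond 2-fold. The SD was 0.47 at 16 °C and 0.45 at 24 °C (n = 40 each), and only 1.74% and 0.779% of all probes had a smaller one. For myo-3, the other body wall heavy chain, the ratios ran from -1.21 through -0.12 to 0.95 at 16 °C (SD 0.47) and from -1.38 through -0.13 to 1.32 at 24 °C (SD 0.58). The troponin I gene unc-27 was as narrow, from -0.88 through 0.04 to 0.93 at 16 °C (SD 0.43) and from -1.37 through 0.01 to 1.84 at 24 °C (SD 0.56). For the paramyosin gene unc-15 the ratios ran from -0.96 through 0.21 to 1.80 at 16 °C (SD 0.62) and from -1.19 through 0.28 to 1.498 at 24 °C (SD 0.67). At both temperatures 26 of the 40 unc-15 ratios were above 0, with means of 0.27 and 0.34, which were not tested against 0. The typical probe was wider, with a median SD over all probes of 1.05 at 16 °C and 1.11 at 24 °C.

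**Figure D1:**
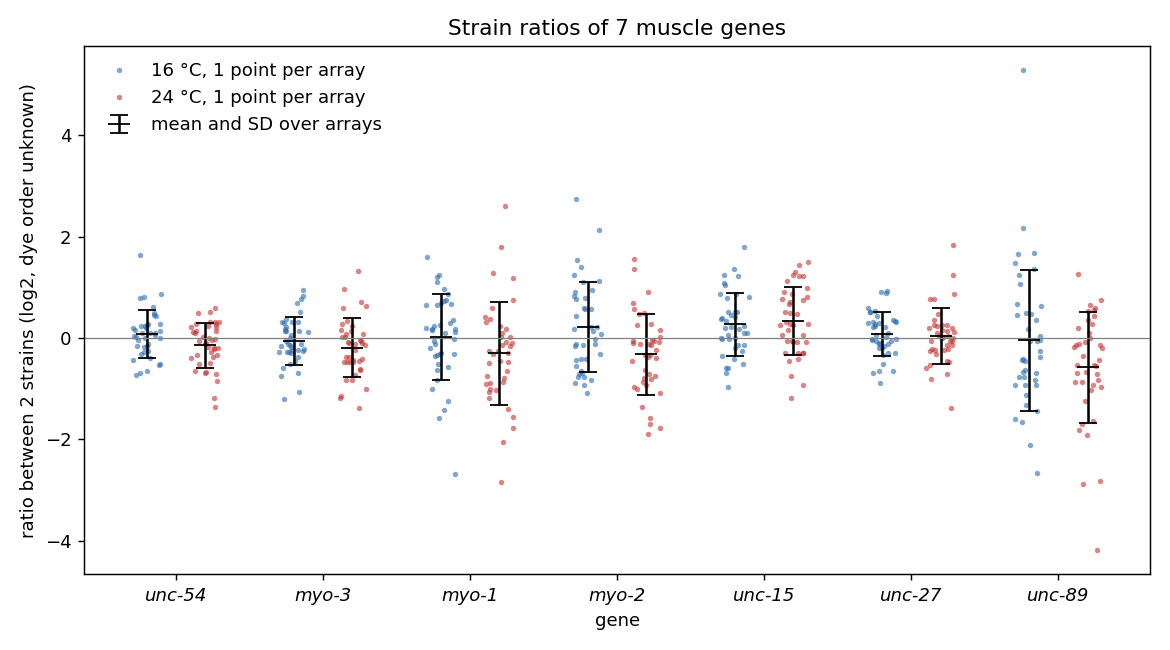
Log2 ratio of the 2 strains on each array (y axis) for the 7 muscle genes (x axis), with 1 point per array, 40 at 16 °C (blue) and 40 at 24 °C (red), and the mean and SD over arrays in black. The points of unc-54, myo-3 and unc-27 lie close to 0, those of the pharyngeal genes myo-1 and myo-2 spread more widely, and unc-89 holds the extremes, 5.29 at 16 °C and -4.18 at 24 °C.

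The pharyngeal heavy chains and unc-89 spread more widely than unc-54, myo-3, unc-27 and unc-15. Of all probes, 31.9% at 16 °C and 41.8% at 24 °C had a smaller SD than myo-1. For myo-2 these shares were 35.2% and 21.5%, and for unc-89 they were 78.7% and 48.2%. The ratios of myo-1 ran from -2.68 in WN13/WN21 through 0.13 to 1.59 in WN71/WN79 at 16 °C (SD 0.85), and from -2.83 in WN67/WN26 through -0.28 to 2.59 in WN43/WN40 at 24 °C (SD 1.02). Those of myo-2 ran from -1.09 through 0.11 to 2.74 in WN14/WN18 at 16 °C (SD 0.89), and from -1.90 in WN67/WN26 through -0.29 to 1.57 in WN43/WN40 at 24 °C (SD 0.80). At 24 °C the same array was therefore lowest for both pharyngeal genes, and the same array highest. The ratios of unc-89 ran from -2.66 through -0.32 to 5.29 at 16 °C (SD 1.39) and from -4.18 through -0.48 to 1.27 at 24 °C (SD 1.08). The unc-89 ratio was beyond 2-fold, either way, on 15 arrays at 16 °C and on 10 at 24 °C, against 1 and 2 arrays for unc-54. Both extremes of unc-89 belonged to single arrays: WN16/WN34 gave 5.29 at 16 °C and 0.09 at 24 °C, and WN45/WN12 gave 1.69 at 16 °C and -4.18 at 24 °C.

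The next comparison asks whether the pairs that were high or low at 16 °C were so at 24 °C as well. None of the 7 genes passed the test of this, a Pearson correlation over the 39 matched pairs with Benjamini-Hochberg adjustment over all probes, which 1.07% of all 23232 probes passed (248 in either direction). The largest positive values were 0.15 for myo-1 (rho = 0.13, permutation p = 0.34 and 0.42, adjusted p = 0.939) and 0.09 for unc-54 (rho = 0.09, permutation p = 0.58 and 0.57, adjusted p = 0.967). The most negative was -0.20 for unc-15 (rho = -0.13, permutation p = 0.22 and 0.41, adjusted p = 0.890). The other 4 were -0.15 for myo-3, -0.09 for unc-89, -0.07 for unc-27 and -0.05 for myo-2, and none of the 7 had an unadjusted p under 0.05. When the 2 pairs with the most extreme 16 °C ratio were left out, the correlations lay between -0.24 for unc-89 and 0.12 for unc-54. The ratio kept its sign in 16 of 39 pairs for unc-15 and in up to 22 of 39 for myo-3 and myo-1.

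**Figure D2:**
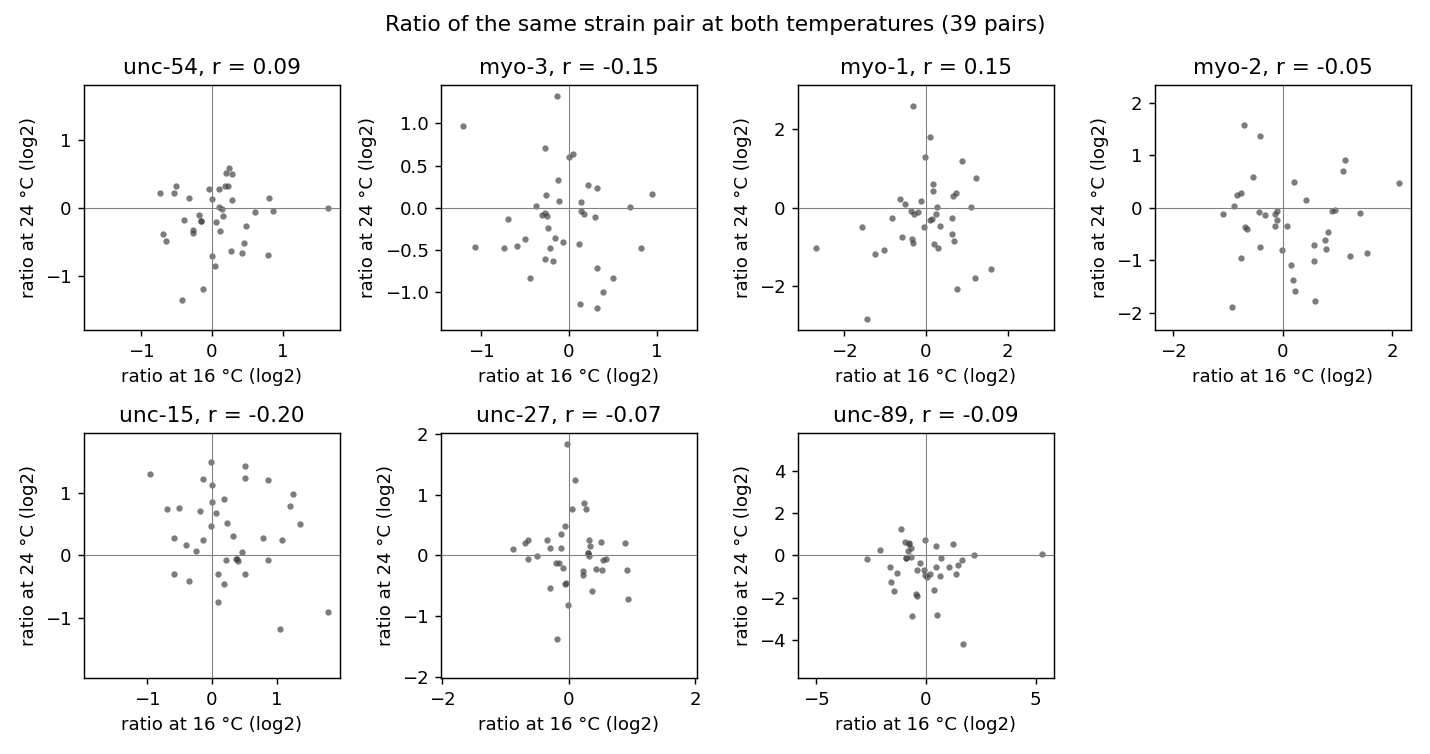
Log2 ratio of each of the 39 matched strain pairs at 16 °C (x axis) against the same pair at 24 °C (y axis), 1 panel per gene with its Pearson r and 1 point per pair. No panel shows a slope, and the points of unc-89 with the largest ratio at either temperature lie near 0 or on the opposite side at the other.

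Single pairs went both ways. On WN71/WN79 the median of the 7 genes was 0.89 at 16 °C and -0.86 at 24 °C, among the highest and the lowest of all arrays, with myo-1 at 1.59 and -1.55, unc-15 at 1.05 and -1.19 and unc-89 at 1.35 and -0.86. On WN43/WN40 myo-1 was at -0.31 and 2.59, myo-2 at -0.71 and 1.57 and myo-3 at -0.14 and 1.32. Other pairs kept their side, which was so in 22 of 39 pairs for myo-1 and in 18 of 39 for myo-2. On WN67/WN26 myo-1 was at -1.43 and -2.83 and myo-2 at -0.93 and -1.90. On WN5/WN25 myo-1 was at 1.23 and 0.75 and myo-2 at 1.13 and 0.91. Over the 39 pairs the median of the 7 genes at 16 °C and at 24 °C had r = -0.23 (rho = -0.24), given as a description.

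The width of the ratios did not pass a test of difference between the temperatures for any of the 7 genes either (Pitman-Morgan test over the 39 pairs, adjusted over all probes), against 9.12% of all probes. The SD at 24 °C over that at 16 °C was 1.29 for unc-27 (adjusted p = 0.349), 1.20 for myo-3 (0.538), 1.20 for myo-1 (0.541), 1.08 for unc-15 (0.819), 0.97 for myo-2 (0.940), 0.94 for unc-54 (0.866) and 0.78 for unc-89 (0.375). No unadjusted p was under 0.05.

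**Figure D3:**
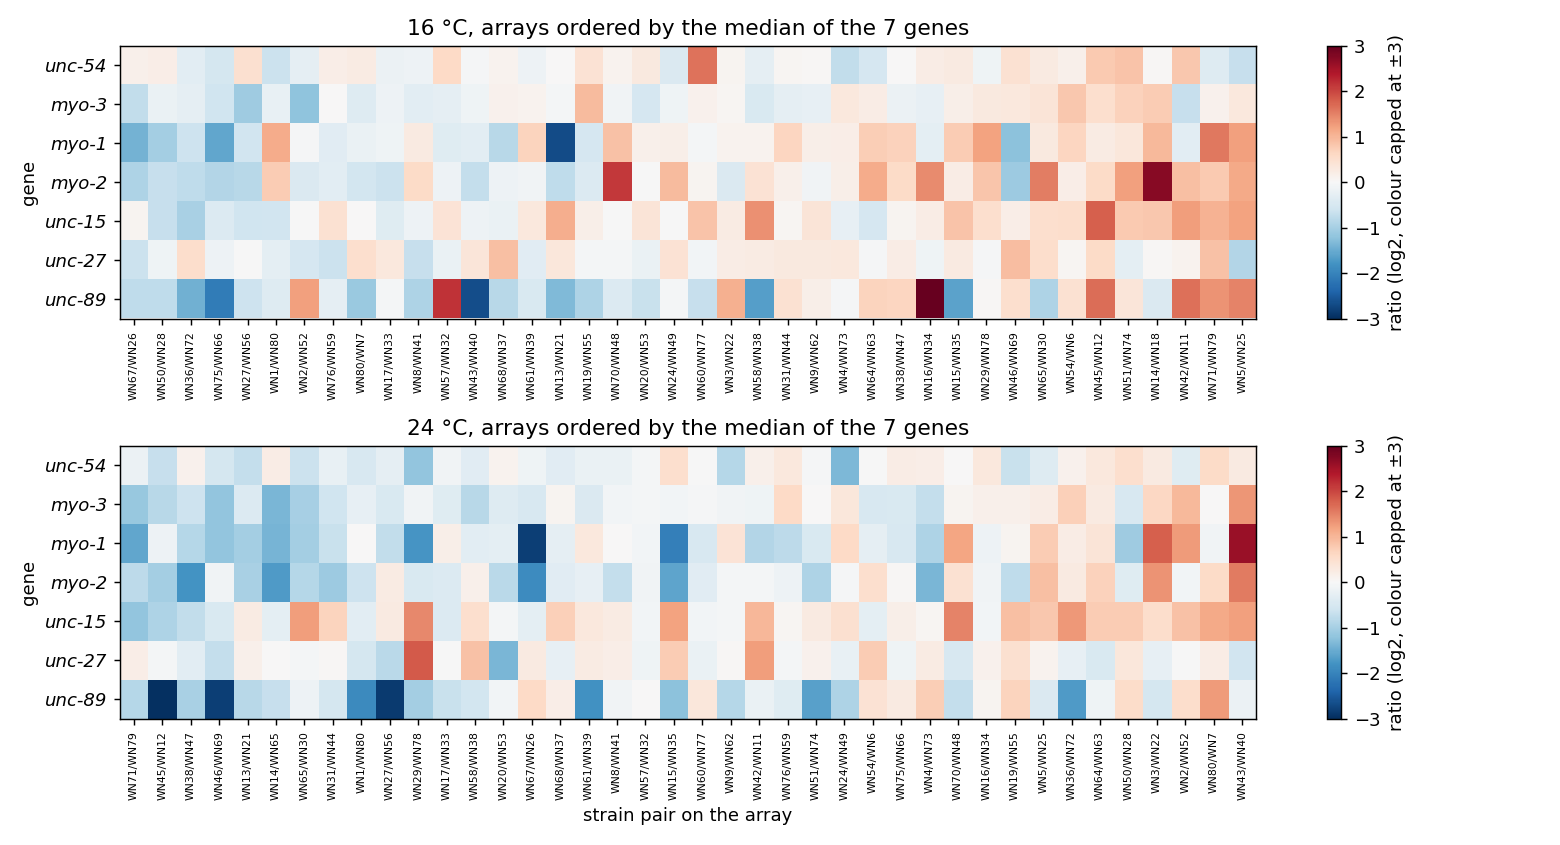
Log2 ratios of the 7 genes (rows) on every array (columns, named by strain pair), with arrays ordered at each temperature by the median of the 7 genes and the colour capped at 3 either way. At 24 °C the right end, WN43/WN40, is red for myo-3, myo-1, myo-2 and unc-15, while unc-54 and unc-27 show no matching gradient.

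Although the ratios did not repeat between temperatures, some of the genes moved together from array to array. The 2 pharyngeal heavy chain genes were correlated at both temperatures. Across the 40 arrays at 16 °C myo-1 and myo-2 had r = 0.67 (rho = 0.78, both permutation p = 1e-05, the smallest that 100000 resamples can give; adjusted p = 0.0131), and r = 0.67 without the 2 arrays farthest from the median of myo-1. At 24 °C they had r = 0.75 (rho = 0.64, permutation p = 1e-05 for r, adjusted p = 0.000498), and r = 0.65 without the 2 farthest arrays. Adjustment here ran over all 162617 relations of a muscle gene with another probe, of which 0.0806% passed at 16 °C and 0.700% at 24 °C. Of the 21 pairs among the 7 genes, 1 passed at 16 °C and 3 at 24 °C, all positive.

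The pairs that passed at 24 °C beside myo-1 with myo-2 joined myo-3 of the body wall to the pharyngeal genes. The r of myo-3 with myo-1 was 0.67 (rho = 0.67, permutation p = 2e-05 for r, adjusted p = 0.00456; 0.57 without the 2 farthest arrays) and with myo-2 0.59 (rho = 0.55, permutation p = 9e-05 for r, adjusted p = 0.0221; 0.45 without the 2 farthest arrays). The latter lost its call without WN43/WN40, where both genes were highest (r = 0.51, adjusted p = 0.0806), an alternative chosen after seeing the data, and without the recurring strains (r = 0.56, adjusted p = 0.105). At 16 °C the same pairs had r = 0.32 (adjusted p = 0.552) and 0.38 (adjusted p = 0.406). The paramyosin gene unc-15 came next with myo-3, r = 0.53 at 24 °C (adjusted p = 0.0561) and 0.33 at 16 °C (adjusted p = 0.523), and it passed at 24 °C without the array of widest ratios, WN58/WN38 (r = 0.55, adjusted p = 0.0490).

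**Figure D4:**
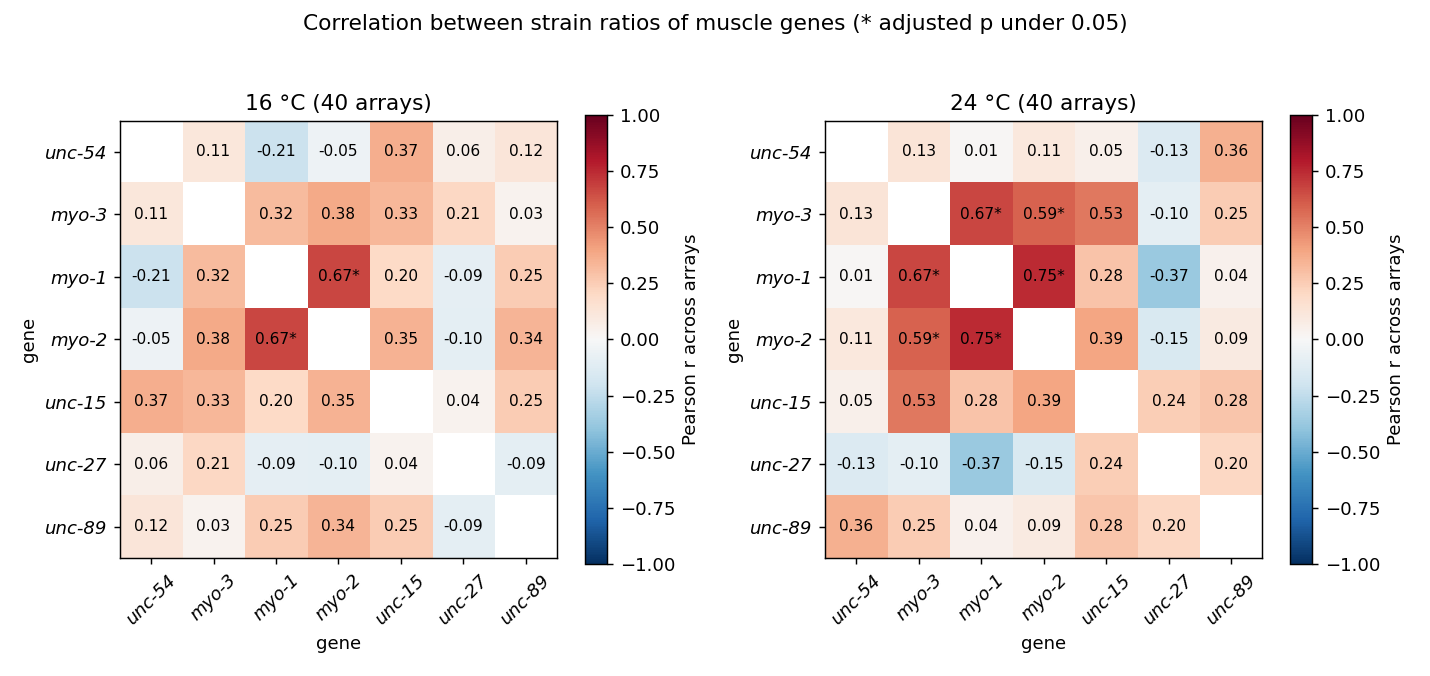
Pearson r across 40 arrays between the strain ratios of each 2 of the 7 genes, at 16 °C (left) and 24 °C (right), on a colour scale from -1 to 1, with an asterisk where the adjusted p was under 0.05. The cell of myo-1 and myo-2 is marked on both sides, and those of myo-3 with myo-1 and with myo-2 on the right alone.

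No pair with unc-54, unc-27 or unc-89 passed the test. Whether these pairs differ from those that passed was not tested. The 2 heavy chains of the body wall, unc-54 and myo-3, which share a filament, had r = 0.11 at 16 °C (rho = 0.08, permutation p = 0.50, adjusted p = 0.907) and 0.13 at 24 °C (rho = 0.18, permutation p = 0.43, adjusted p = 0.823). The largest r of unc-54 with another of the 7 was 0.37 with unc-15 at 16 °C (adjusted p = 0.435) and 0.36 with unc-89 at 24 °C (adjusted p = 0.304), neither past the test. The troponin I gene unc-27 ranged from -0.37 with myo-1 to 0.24 with unc-15 at 24 °C, and the largest r of unc-89 at 16 °C was 0.34, with myo-2. Over all 21 pairs the median r was 0.20 at 16 °C and 0.20 at 24 °C, beside 0.01 over all relations with other probes at each temperature.

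**Figure D5:**
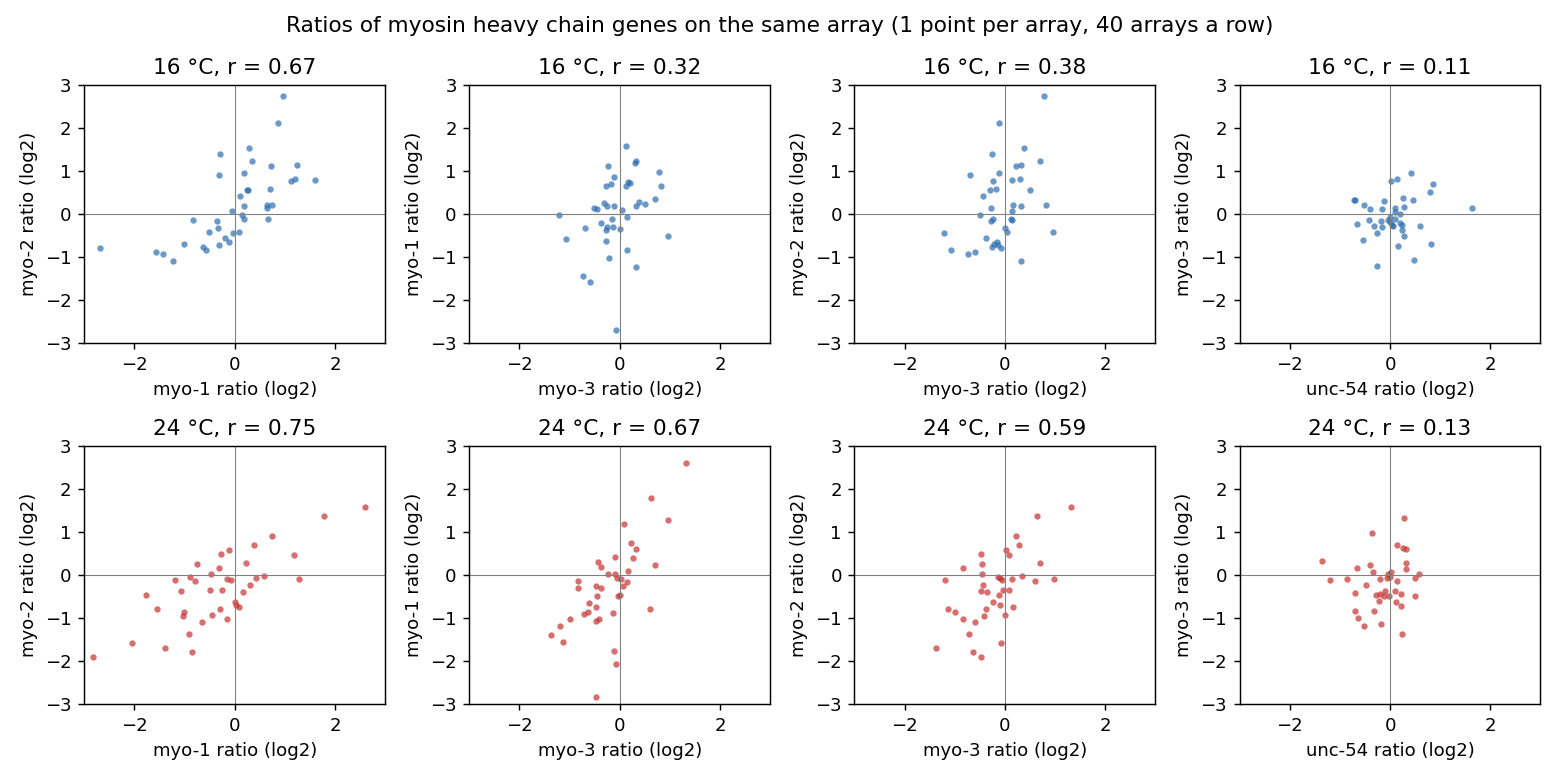
Log2 strain ratios of 2 myosin heavy chain genes on the same array (x and y axes), 1 point per array, 40 arrays at 16 °C (top) and 40 at 24 °C (bottom), with Pearson r above each panel. The points of myo-1 and myo-2 follow a rising band at both temperatures (r = 0.67 and 0.75), those of unc-54 and myo-3 form a cloud (r = 0.11 and 0.13).

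No pair of the 7 genes was shown to change its correlation with temperature. On the 39 matched pairs the difference in r, 24 °C minus 16 °C, ran from -0.32 to 0.37, the largest being that of myo-3 with myo-1 (swapping the temperatures within pairs, p = 0.064; adjusted p of the difference of Fisher z values = 0.675). Of the 21 pairs, 0 had a swap p under 0.05 and 0 passed after adjustment, and of all 162617 relations 1 passed (0.000615%; 11361 at an unadjusted p under 0.05). The larger number of relations past the test at 24 °C is thus a difference in counts, which was not tested as such. The correlations were not found across arrays of different temperatures. When 1 gene was taken at 16 °C and the other at 24 °C in the same strain pair, a comparison added after seeing the data, myo-1 and myo-2 had r = 0.04 and 0.06, and all 42 such values lay between -0.35 and 0.39 with a median of -0.07. Of the 42, 2 had an unadjusted permutation p under 0.05. Since none of the 7 genes was shown to repeat its own ratio between temperatures, these low values are no separate evidence. Whether the probes of the similar myosin genes bind each other's RNA was not tested.

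The 7 genes differed in how many other probes followed them. At 24 °C myo-1 had 238 probes with a positive and 100 with a negative relation, myo-3 149 and 50, myo-2 135 and 141, unc-15 111 and 22, unc-89 96 and 17, unc-54 36 and 30, and unc-27 6 and 7. Their sum of 1138 relations fell to 266 without the arrays of recurring strains and to 704 without WN3/WN22, the cause of which was not tested. At 16 °C the order was led by myo-2 with 40 positive and 8 negative, then myo-1 with 32 and 3, myo-3 with 13 and 5, unc-15 with 11 and 6, unc-89 with 5 and 1 and unc-54 with 3 and 4, while unc-27 had 0 of either (1143 at an unadjusted p under 0.05). Relations past the test at both temperatures, always with the same sign, were found for 10 probes with myo-1, 7 with myo-2 and 1 with unc-15.

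Among these are myo-1 and myo-2 with each other, 5 unnamed probes with myo-1 and 2 unnamed probes with myo-2. The other named ones are given here after their values were seen. With myo-1 they were anc-1, which anchors nuclei to actin (r = 0.74 at 16 °C, adjusted p = 0.00404, and 0.71 at 24 °C, adjusted p = 0.00159), the potassium channel gene twk-31 (0.74 and 0.56), the trehalose synthesis gene tps-1 (0.66 and 0.58) and the small heat shock gene hsp-12.2 (0.65 and 0.59). With myo-2 they were hsp-25, a small heat shock gene whose protein is found in muscle (0.66, adjusted p = 0.0164, and 0.60, adjusted p = 0.0197), the dystroglycan gene dgn-1 (0.64 and 0.64), the chromatin remodelling gene chd-7 (0.62 and 0.62) and myo-5, a further myosin heavy chain gene (0.65 and 0.57). With unc-15 it was gld-2, a cytoplasmic poly(A) polymerase of the germline (0.64 and 0.55). Permutation p for these relations lay at or below 0.00021 for r and at or below 0.00088 for rho at both temperatures.

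Among genes of 10 further muscle lists (69 probes), 5 had a positive and 0 a negative relation with at least 1 of the 7 genes at 16 °C, beside 0.426% and 0.116% of all probes, and 3 a positive and 2 a negative one at 24 °C, beside 2.51% and 1.27%. At 16 °C these were myo-5 and hsp-25 with myo-2, the troponin I gene tni-3 with myo-2 (r = 0.60, adjusted p = 0.04997, just under the threshold), the troponin T gene tnt-2 with unc-15 (r = 0.66, adjusted p = 0.0189) and mua-6, which encodes an intermediate filament protein of the attachments between epidermis and muscle, with myo-3 (r = 0.64, adjusted p = 0.0231). At 24 °C the first of them, myo-5, had a relation with myo-1 (r = 0.69, adjusted p = 0.00268), myo-3 (r = 0.66, adjusted p = 0.00475) and myo-2, hsp-25 again with myo-2, and uig-1, a dense body exchange factor, with myo-1 (r = 0.54, adjusted p = 0.0451). The negative relations were those of pat-10, the troponin C of body wall muscle, with myo-3 (r = -0.54, adjusted p = 0.0473) and of sgn-1 of the sarcoglycan complex with unc-15 (r = -0.58, adjusted p = 0.0276). By list, the members with a relation were 1 of 8 probes of other myosin heavy chains, 2 of 12 of the thin filament, 1 of 6 of chaperones and 1 of 11 of basement membrane and attachment at 16 °C, and none of the 3 myosin light chain probes or the 8 probes of excitation and contraction coupling at either temperature.

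With unc-54 itself no gene of the muscle lists passed. The closest at 16 °C was vab-10, a spectraplakin that links epidermis and muscle (r = 0.52, permutation p = 0.00047, adjusted p = 0.133), followed by tnt-2 (0.46, adjusted p = 0.234) and ost-1, or SPARC, of the basement membrane (0.43, adjusted p = 0.291). At 24 °C it was the laminin gene epi-1 (0.50, permutation p = 0.00086, adjusted p = 0.0765), then pxl-1, the paxillin of the dense body (-0.45, adjusted p = 0.132), the myosin chaperone gene unc-45 by 1 of its 2 probes (0.45, adjusted p = 0.139; the other probe had -0.11) and the titin gene ttn-1 (0.43, adjusted p = 0.160). The gene sti-1 of the chaperone list had 0.43 (adjusted p = 0.168) and the actin gene act-3 had 0.42 (adjusted p = 0.190). The pharyngeal muscle transcription factor gene ceh-22, known to activate myo-2, had r = 0.40 with myo-2 (permutation p = 0.011, adjusted p = 0.365) and 0.52 with myo-1 (permutation p = 0.0013, adjusted p = 0.128) at 16 °C, and 0.26 and 0.31 at 24 °C, none past the test. With myo-3 of the body wall ceh-22 had r = 0.46 at 16 °C (permutation p = 0.0037, adjusted p = 0.244) and 0.08 at 24 °C. The relation was thus not particular to the pharyngeal genes at 16 °C.

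The relations of markers of other tissues were as follows. Of 57 marker probes of epidermis, intestine, neurons, germline and sperm, 0 had a relation past the test with any of the 7 genes at 16 °C (39 of 399 relations had an unadjusted p under 0.05). At 24 °C there were 2, both positive and with unc-54, beside the 2.51% of all probes with a positive relation: the cuticle collagen gene bli-1 (r = 0.55, permutation p = 0.00027, adjusted p = 0.0417; 0.51 at 16 °C, adjusted p = 0.145) and the intestinal actin gene act-5 (r = 0.56, permutation p = 0.00012, adjusted p = 0.0337; -0.02 at 16 °C). Without the 2 arrays farthest from the median of unc-54, bli-1 had r = 0.57 and act-5 had 0.42 at 24 °C. Median r of the 12 epidermal probes at 24 °C ran from -0.05 with unc-15 to 0.25 with myo-2, and was 0.22 with unc-54 and myo-1. At 24 °C that of the 7 intestinal probes ran from -0.09 with unc-15 to 0.31 with myo-1 (0.20 with unc-54). That of the 11 germline probes ran from -0.20 with myo-1 to 0.17 with unc-54, and of the 22 sperm probes from -0.19 to 0.18 with the same 2 genes. That of the 5 neuronal probes ran from -0.38 with unc-54 to 0.25 with myo-3 and myo-1 at 24 °C, and from -0.22 with unc-27 to 0.39 with myo-1 at 16 °C. By the correlation between temperatures 0 of the 69 muscle list probes and 0 of the 57 marker probes were repeatable after adjustment (4 and 2 at an unadjusted p under 0.05).

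Likeness to the median ratio of the 7 genes is given with no test and for probes with a gene name. The leading ones at 16 °C were znfx-1, a helicase of germ granules (r = 0.76), unc-15 itself (0.72), F12F6.1 (0.67), dgn-1 (0.66) and myo-2 itself (0.65). After them came tag-18 (0.65), lin-49 (0.64), ogdh-2 (0.64), myo-5 (0.63) and M01E5.3 (0.63), all over 40 arrays. At 24 °C the leading ones were myo-3 itself (0.81), the astacin protease gene nas-15 (0.76), abu-1 by 1 of its 2 probes (0.71) and the G protein subunit gene gpb-1 (0.70). Then followed nrd-1 (0.70), ceh-100 (0.69), sec-16A.1 (0.69), the cotransporter gene kcc-1 (0.69), ZK662.2 (0.69) and srz-78 (0.68). At 24 °C the 16 °C set had 0.66 for myo-2, 0.65 for myo-5, 0.63 for dgn-1, 0.58 for znfx-1 and 0.56 for unc-15. The rest of it had 0.48 for M01E5.3, 0.32 for F12F6.1, 0.31 for tag-18, 0.17 for lin-49 and 0.08 for ogdh-2. At 16 °C the probes of the 24 °C set ran from 0.07 for ZK662.2 to 0.56 for myo-3. Whether likeness differs between the temperatures was not tested.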

How the data were processed

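RNA of 2 strains was labelled with Cy3 and Cy5 and hybridised to each of 80 oligonucleotide arrays. The authors deposited a normalised log ratio of every probe on every array, which was taken to be log2. Per the submitters' processing notes limma was used, with no version, and the base of the log, the direction and the steps are not given in the sources used here. Gene names come from the platform annotation (17447 of 23232 probes), updated through RefSeq for WBcel235 (17358 matched).

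From these ratios, Pearson correlations and Pitman-Morgan tests were computed with Python 3.11.15, numpy 2.4.6, scipy 1.17.1 and pandas 2.3.3. Two-sided p of r was adjusted (Benjamini-Hochberg) over all probes, or over all relations of the 7 genes, with a threshold of 0.05. Permutation tests used 100000 resamples, and 10000 for swapped temperatures. The scripts were tested on simulated data.

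The muscle genes and lists were chosen with earlier results of these data known. Named genes are the 7 members and, of the probes with a gene name, the 10 most like their median at each temperature. To these come up to 4 genes a list with the largest absolute r with unc-54, of which the closest are printed. Further muscle list genes, such as tni-3, pat-10 and uig-1, are named because a relation passed the test. The relations of ceh-22, mls-1, unc-120 and hnd-1 with the myosin genes also lie outside the rule. Others are marked as named after their values were seen. Alternatives were array scaling, ranks, removal of 2 principal components, a threshold of 0.01, scaling per temperature, and leaving out recurring strains, WN3/WN22, WN43/WN40 or the widest array.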

Additional observations from a re-analysis of the deposited data

Results flagged for a closer look

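One relation differed between the temperatures by a test of the difference itself. The gene syx-17, which encodes a syntaxin, had r = 0.28 with myo-2 across the 40 arrays at 16 °C (rho = 0.20, permutation p = 0.074) and r = -0.685 at 24 °C (rho = -0.70, permutation p = 1e-05, adjusted p = 0.00268). The difference on the 39 matched pairs had an adjusted p of 0.0211, and swapping the temperatures within pairs gave p = 0.0001, the smallest that 10000 resamples can give. Without the 2 arrays farthest from the median of myo-2, r was 0.39 at 16 °C and -0.63 at 24 °C. It was 1 of 162617 relations, and no relation passed at an adjusted p under 0.01 or without WN3/WN22.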

How the results depend on the processing

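Under the alternatives named with the processing, the counts of members past the tests of repeatability, of spread and of a difference in correlation stayed at 0. The pairs of members past the test numbered 1 at 16 °C under every alternative except an adjusted p under 0.01, where there were 0, and 2 to 4 at 24 °C. The relation of myo-1 with myo-2 kept r between 0.67 and 0.78 at 16 °C (adjusted p from 0.000149 to 0.0310) and between 0.64 and 0.77 at 24 °C (0.000250 to 0.00675), and that of myo-3 with myo-1 at 24 °C between 0.59 and 0.69 (0.00322 to 0.0286). Taking the first probe of each member changed nothing, since each has 1. The relations past the test over all probes, 131 at 16 °C and 1138 at 24 °C, became 85 and 266 without recurring strains and 11 and 198 at an adjusted p under 0.01. At 24 °C they were 704 without WN3/WN22. At 16 °C they were 343 by ranks, 71 with 2 principal components removed and 83 without WN43/WN40, chosen after seeing the data. The 1 relation that differed between temperatures became 6 with scaled arrays, 16 by ranks, 14 with components removed, 10 without WN43/WN40, 2 without recurring strains or without the widest pair, and 0 at an adjusted p under 0.01 or without WN3/WN22. Near-zero values changed sign: the repeatability of myo-2 was 0.053 without recurring strains, 0.029 with components removed and 0.024 without WN43/WN40, the log2 spread ratio of unc-15 was -0.013 with scaled arrays, and the r of unc-54 with myo-3 at 16 °C was -0.0028 with components removed. The cause of these changes was not tested, beyond the smaller number of arrays or stricter threshold that some settings impose. No fit with the replicate number as a block was made, since the temperatures share no replicate numbers. The tests between temperatures match arrays by strain pair.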

Other observations

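The groups in this paragraph and the next were chosen after their values were seen, so they are described with no test of the group. The abu and pqn genes, several of which encode proteins of the pharyngeal cuticle, have 68 probes. Of these, 14 had a positive relation with at least 1 of the 7 genes at 24 °C and 0 at 16 °C, where 2.51% and 0.426% of all probes did. Most belonged to unc-15 (9 probes, where 0.478% of all probes had one) and myo-3 (6 probes, 0.641%). The largest were abu-5 with unc-15 (r = 0.74, rho = 0.73, permutation p = 1e-05, adjusted p = 0.000498) and pqn-54 with myo-3 (r = 0.71, rho = 0.69, permutation p = 1e-05, adjusted p = 0.00153). At 16 °C these had r = 0.30 (adjusted p = 0.582) and 0.09 (adjusted p = 0.930), but the difference between temperatures did not pass (adjusted p = 0.47 and 0.24). With myo-1 there were 3 at 24 °C, with myo-2 1 and with unc-89 1, and with unc-54 and unc-27 there were 0. The median r of the 68 probes at 24 °C was 0.34 with myo-3, 0.27 with myo-2 and unc-15, 0.24 with myo-1, 0.09 with unc-89, 0.06 with unc-27 and 0.02 with unc-54, and it was 0.04 with myo-3 at 16 °C. These genes resemble each other in sequence, so their probes are not independent.

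Of 68 probes of ribosomal protein genes, 5 had a negative relation with at least 1 of the 7 genes at 16 °C (0.116% of all probes) and 5 at 24 °C (1.27%), and 0 a positive one at either. With unc-15 they were rps-9 (r = -0.71, adjusted p = 0.00615), rps-28 (-0.67, adjusted p = 0.0131) and rpl-37.2 (-0.65, adjusted p = 0.0205) at 16 °C, and rps-20 (-0.59, adjusted p = 0.0239), rpl-39 (-0.57, adjusted p = 0.0298) and rpl-36 (-0.56, adjusted p = 0.0366) at 24 °C. Over the 7 genes their median r ran from -0.35 with unc-15 to 0.05 with unc-27 at 16 °C, and from -0.17 with unc-15 to 0.12 with myo-1 at 24 °C. A few further single relations were picked out by eye, while the epidermal marker list had 0 relations past the test with myo-3 at 16 °C and 0 with unc-89 at 24 °C. With myo-3 at 16 °C they were the hedgehog-related gene wrt-2 (r = 0.68, adjusted p = 0.0126), lpr-3 (0.66, adjusted p = 0.0174) and mlt-11 (0.63, adjusted p = 0.0286), which had 0.22, 0.03 and 0.11 at 24 °C. With unc-89 at 24 °C they were col-144 (r = 0.66, adjusted p = 0.00516), bus-5 (0.65, adjusted p = 0.00790) and mlt-8 (0.62, adjusted p = 0.0130), which had 0.01, 0.04 and 0.02 at 16 °C. For none of these 6 did the difference between temperatures pass (adjusted p from 0.31 to 0.68).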
